A study of Vitis vinifera with 171 samples.

Results

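Mid-ripening berries of the grapevine cultivar Corvina were compared between the growth years 2006 and 2007. The comparison took the 24 arrays, of 171 in the series, that the labels place at mid-ripening in the vineyards AM, CS, MN and PSP in those years, with 3 biological replicates for each vineyard and year. The vines of all vineyards and years were of 1 Corvina clone of Vitis vinifera, and RNA came from pericarp, meaning entire berries with the seeds taken out. AM lies in the Soave area and CS in the Bardolino area, and both are trained on overhead pergolas of the parral type. MN and PSP lie in the Valpolicella area and are trained as guyot, with canes on a vertical trellis. The spring of 2007 was much warmer than that of 2006, and sampling dates were moved in each year with the aim of picking berries at a similar phase. The study considered its samples uniformly ripe at each stage. Its own readings at mid-ripening, however, gave less sugar (°Brix) in 2007 than in 2006 in all 4 vineyards. Total acidity was lower in 2007 in AM, CS and PSP and higher in MN. Total anthocyanins were lower in 2007 in AM and MN and, within their spread, higher in CS. The ratio of quercetin glucoside to glucuronide was higher in AM and CS and lower in MN. Neither was measured in PSP in 2007. From veraison to harvest acidity fell and this ratio rose in the study's readings, so the readings did not all place 2007 behind 2006. The question was which transcripts differed between berries of these years at a stage called the same. The 3 replicates of a vineyard and year came from 1 site, so the p-values within a vineyard measure the spread inside that vineyard, and the 4 vineyards are the replicates of the year comparison.

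Veraison is the onset of ripening, when berries soften, take up sugar and, in red cultivars, start to colour. From then to harvest, chloroplasts and the photosynthetic machinery are lost, cell walls are remodelled, and defence proteins such as chitinases, thaumatins and other pathogenesis-related (PR) proteins accumulate. Mid-ripening lies between those points, so a gene that climbs or declines steeply through ripening takes different values at slightly different degrees of ripeness. Berries at mid-ripening also start to make stilbenes, the antifungal phenolics that include resveratrol, and sesquiterpenes such as germacrene D.

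Levels are given as log2 intensity, the log2 of the mean over the probes of a gene, on a NimbleGen array that carries 29544 probe sets, nearly all with 4 probes. A difference is 2007 minus 2006 in log2 units, so a value of 1 is a doubling. The deposited intensities had been normalized, and the median intensity of the gene probes lay between 462.5 and 482.74 on all 24 arrays. Background was read from random-sequence probes that match no gene: their 95th percentile, called the random-probe level here, lay between 6.24 and 7.62 in 2006 and between 5.80 and 8.55 in 2007. It was 7.18 to 8.55 on the AM and CS arrays of 2007, but 5.80 to 6.18 on the PSP arrays of 2007 against 6.89 to 7.62 on those of 2006. Where values lie below that level, a difference is that of the values as measured, a rank among them has no meaning, and a bound ("at least") is given instead where there is one. Between 67.4% and 80.8% of the probe sets lay above it in 2006 and between 58.6% and 89.0% in 2007. The 24 arrays came from 9 slides, of which 1 held arrays of both years but of different vineyards, so slide and year cannot be told apart within a vineyard. Gene names were known here for 5297 probe sets, so each gene list holds only the members named here. For seed tissue, the list fixed for it held 2 measured genes, the storage protein legumin and the oil-body protein steroleosin-B.

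Legumin VIT_12s0034g01950 ranged from 9.01 to 11.91 (median 10.17) on the 12 arrays of 2006 and from 6.16 to 12.56 (median 9.29) on the 12 arrays of 2007. The 3 PSP arrays of 2007 stood at 12.56, 12.48 and 12.49, above every other array, whereas the PSP arrays of 2006 stood at 9.01, 9.46 and 9.05. The difference was -1.79 in AM, -3.59 in CS, -0.96 in MN and 3.33 in PSP, and those of AM, CS and PSP passed limma's test within the vineyard. Steroleosin-B VIT_18s0157g00200 ranged 10.41 to 11.04 (median 10.91) in 2006 and 10.33 to 11.46 (median 10.95) in 2007, and only its PSP difference of -0.51 passed, in the opposite direction to legumin. Whether seed RNA had a part in the PSP values below was not tested.

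As whole transcriptomes, the vineyards lay close together in 2006 and about as far apart in 2007 as the years were from each other. The distance used was 1 minus the Pearson correlation over all probe sets between means of triplicates. Between the years it averaged 0.0455 ± 0.0131 (SD, 16 pairs), against 0.0205 ± 0.00487 among the 4 means of 2006 and 0.0464 ± 0.0168 among those of 2007 (6 pairs each). The mean distance between years exceeded that within a year by 0.0121. No other of the 35 ways to split the 8 means into groups of 4 gave a larger excess (exact permutation test, one-sided, p = 0.0286, the smallest that free splits allow). With the years swapped only within vineyards there are 8 assignments, and the observed one again had the largest excess, at p = 0.125, the smallest that the paired design allows (exact permutation test, one-sided), so the excess does not pass when vineyards are kept as pairs. The years did not form separate clusters: MN of 2007 was 0.025 from PSP of 2006 but at least 0.0381 from the other means of 2007, and AM of 2007 was 0.0309 from MN of 2006 but 0.043 from MN of 2007. A vineyard was 0.0453 from itself a year later in AM, 0.0691 in CS, 0.0312 in MN and 0.0431 in PSP. AM and CS, which lie in different areas but share a training system, were the closest pair in both years, at 0.0134 in 2006 and 0.0192 in 2007. Replicates of one vineyard and year were 0.0044 to 0.0325 apart on average, the widest being CS in 2007.

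With the years paired by vineyard, no gene passed. limma's fit on the 8 means called 0 of 29544 probe sets (0.0% of all) at an adjusted p below 0.05, and the smallest adjusted p was 0.0981. At an unadjusted p below 0.05 there were 4570 probe sets (15.5%), 2547 higher (8.62%) and 2023 lower (6.85%) in 2007, and at an adjusted p below 0.10 there were 83, of which 57 were higher and 26 lower. By the methods' paired t-test, 853 probe sets had a P below 0.01, the threshold used there, and 0 passed after Benjamini-Hochberg adjustment. The median difference over all probe sets was 0.05, with 1001 probe sets above 1 and 884 below -1, and the extremes of the values as measured were -6.45 and 4.03. In simulated data of the same size this fit found 44.5% of genes changed by 2 log2 units and 90.0% of those changed by 4. Other designs on the same arrays called from 138 to 12762 probe sets, and their counts stand with the processing alternatives.

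Inside the single vineyards large parts of the transcriptome changed. From the fit on the 24 arrays, limma called 15027 probe sets in AM (50.9%), 18150 in CS (61.4%), 12400 in MN (42.0%) and 12716 in PSP (43.0%) at an adjusted p below 0.05. In AM 8333 rose (28.2%) and 6694 fell (22.7%), in CS 10179 rose (34.5%) and 7971 fell (27.0%), in MN 5952 rose (20.1%) and 6448 fell (21.8%), and in PSP 5896 rose (20.0%) and 6820 fell (23.1%). The vineyards did not change alike. The year difference itself depended on the vineyard for 21319 probe sets (72.2%; interaction F test, limma), and 8116 (27.5%) rose in one vineyard and fell in another. Only 1353 probe sets (4.58%) were called in one direction in all 4 vineyards, 725 rising (2.45%) and 628 falling (2.13%).

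AM and CS moved most alike. Over all probe sets their differences correlated at r = 0.81, and of the 12102 probe sets called in both, which are 80.5% of the AM calls and 66.7% of the CS calls, 97.7% had the same direction. MN and PSP correlated at 0.31, with 74.8% of 6127 shared calls in the same direction. The remaining pairs lay between -0.03 for CS and MN and 0.15 for CS and PSP, and of the 8704 calls shared by CS and MN only 38.2% had the same direction. These correlations run across genes, which are not independent replicates. AM and CS are also the vineyards whose 2007 arrays had the high random-probe level. In 2006 all CS arrays and replicates A and B of AM were on the same slide. The part of slide and random-probe level in the likeness of AM and CS was not tested.

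The differences followed the course of ripening. The change of each gene from veraison to harvest was taken from the 2008 arrays of the same 4 vineyards, which are not part of the comparison of 2006 with 2007. Over all probe sets 48.7% declined in 2008. Of the 725 probe sets that rose in all 4 vineyards from 2006 to 2007, 687 (94.8%) were ones that declined through ripening in 2008, and of the 628 that fell in all 4, 55 (8.76%) were. The same shares within single vineyards were 59.7% and 29.8% in AM, 59.6% and 31.7% in CS, 65.9% and 24.7% in MN, and 70.6% and 32.3% in PSP, for probe sets that rose and that fell. Of the 57 probe sets higher in 2007 at an adjusted p below 0.10 in the paired fit, 56 declined in 2008, and of the 26 lower ones none did. Across probe sets, the mean difference of the 4 vineyards correlated with the 2008 course at r = -0.61, and single vineyards at -0.43 in AM and CS, -0.46 in MN and -0.32 in PSP.

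**Figure D1:**
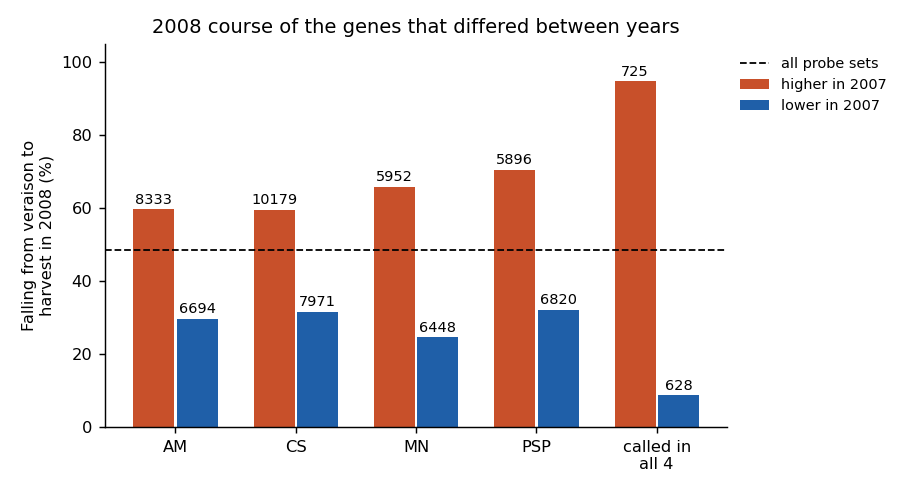
Percentage of probe sets whose level declined from veraison to harvest in 2008, for all 29544 probe sets and for those that rose or fell between 2006 and 2007 in each vineyard and in all 4 vineyards. The share is 94.8% for the 725 that rose in all 4 vineyards and 8.76% for the 628 that fell in all 4, against 48.7% of all.

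Placed on the 2008 course, with veraison of 2008 at 0% and harvest of 2008 at 100%, mid-ripening berries stood lower in 2007 than in 2006 in every vineyard. The means went from 86.6% in 2006 to 44.1% in 2007 in AM, from 88.1% to 35.3% in CS, from 61.2% to 22.9% in MN and from 58.8% to 28.1% in PSP, and the replicates of a mean spread by at most 4.53 (SD, n = 3). The difference averaged -41.1 ± 9.22 percentage points (SD, n = 4 vineyards), lower in 4 of 4 vineyards. Mid-ripening of 2008 itself lay at 50.4%, 74.1%, 40.8% and 57.4% in AM, CS, MN and PSP. Harvest berries of 2007 lay at 62.6% to 72.7%, against 81.6% to 106.4% at harvest of 2006. These positions were projections over all probe sets on the mean change from veraison to harvest of 2008. Over the ripening markers alone, described below, the mid-ripening difference averaged -50.9 ± 21.6 percentage points (SD, n = 4 vineyards). It ran from -70.0 in CS to -20.4 in PSP, and on those markers mid-ripening MN of 2007 lay at -5.27%. The growth year and the degree of ripening reached at sampling cannot be told apart for the genes described here, since both differ between the same arrays.

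**Figure D2:**
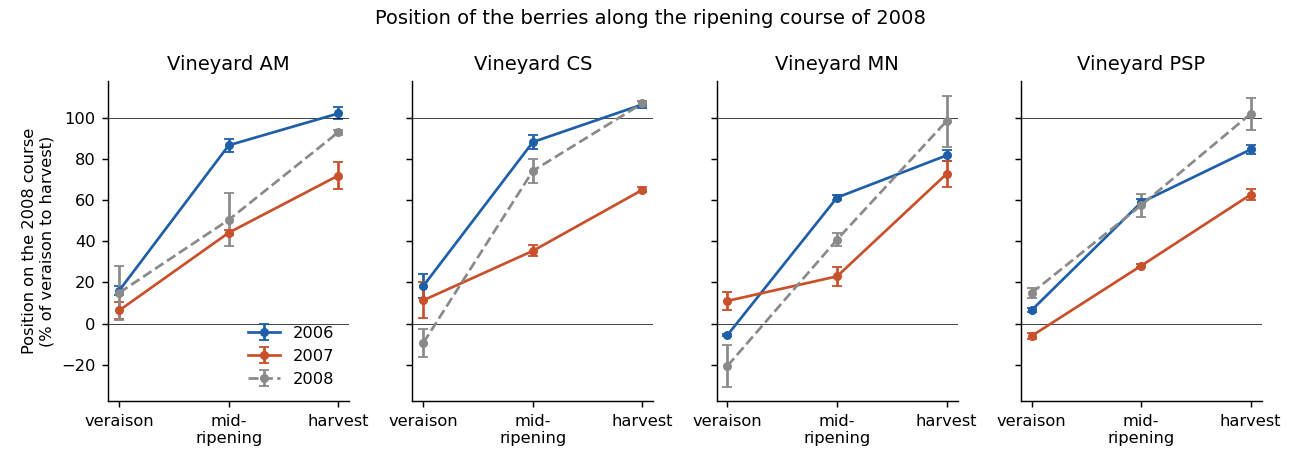
Position of the berries along the 2008 ripening course, in percent of the way from veraison to harvest of 2008, for each vineyard, stage and year. Points are means of 3 arrays; at mid-ripening the difference of 2007 minus 2006 lies between -52.8 and -30.7 percentage points in the 4 vineyards.

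Genes known to rise or decline evenly through ripening shifted as groups. The study had picked such markers on its 2008 arrays over 11 vineyards, so their choice did not use the arrays compared here. Of the 177 markers named here, 148 were matched to probe sets only by their mean levels at the stages of 2008. Of the 104 markers measured that rise with ripening, 49 were lower in 2007 in all 4 vineyards and 0 higher (all probe sets, 10.8% and 13.6%), and 24 fell in all 4 by the tests within vineyards. Their median difference was -1.35, made up of -1.64 in AM, -2.24 in CS, -1.62 in MN and -0.28 in PSP, where 36 fell and 24 rose. Of the 73 markers that decline with ripening, 63 were higher in all 4 vineyards and 45 rose in all 4 by the tests within vineyards. Their median was 1.54, with 1.38, 1.68, 1.66 and 1.29 in AM, CS, MN and PSP. The 75 genes that the study listed as constant on the same 2008 arrays had a median of -0.01. In the paired limma fit 0 of them had an unadjusted p below 0.05, and that fit called 0 of any list after adjustment. Within vineyards, 18, 14, 11 and 2 of the 75 rose and 23, 20, 4 and 10 fell in AM, CS, MN and PSP. Over all probe sets 28.2%, 34.5%, 20.1% and 20.0% rose and 22.7%, 27.0%, 21.8% and 23.1% fell there. In all 4 vineyards 0 of the 75 were called in the same direction, and for 42 the year difference depended on the vineyard (72.2% of all probe sets). Many rising markers are at or below the random-probe level in 2007: with every value raised to the highest random-probe level of the 24 arrays, the medians were -0.34 for rising and 1.06 for declining markers.

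**Figure D3:**
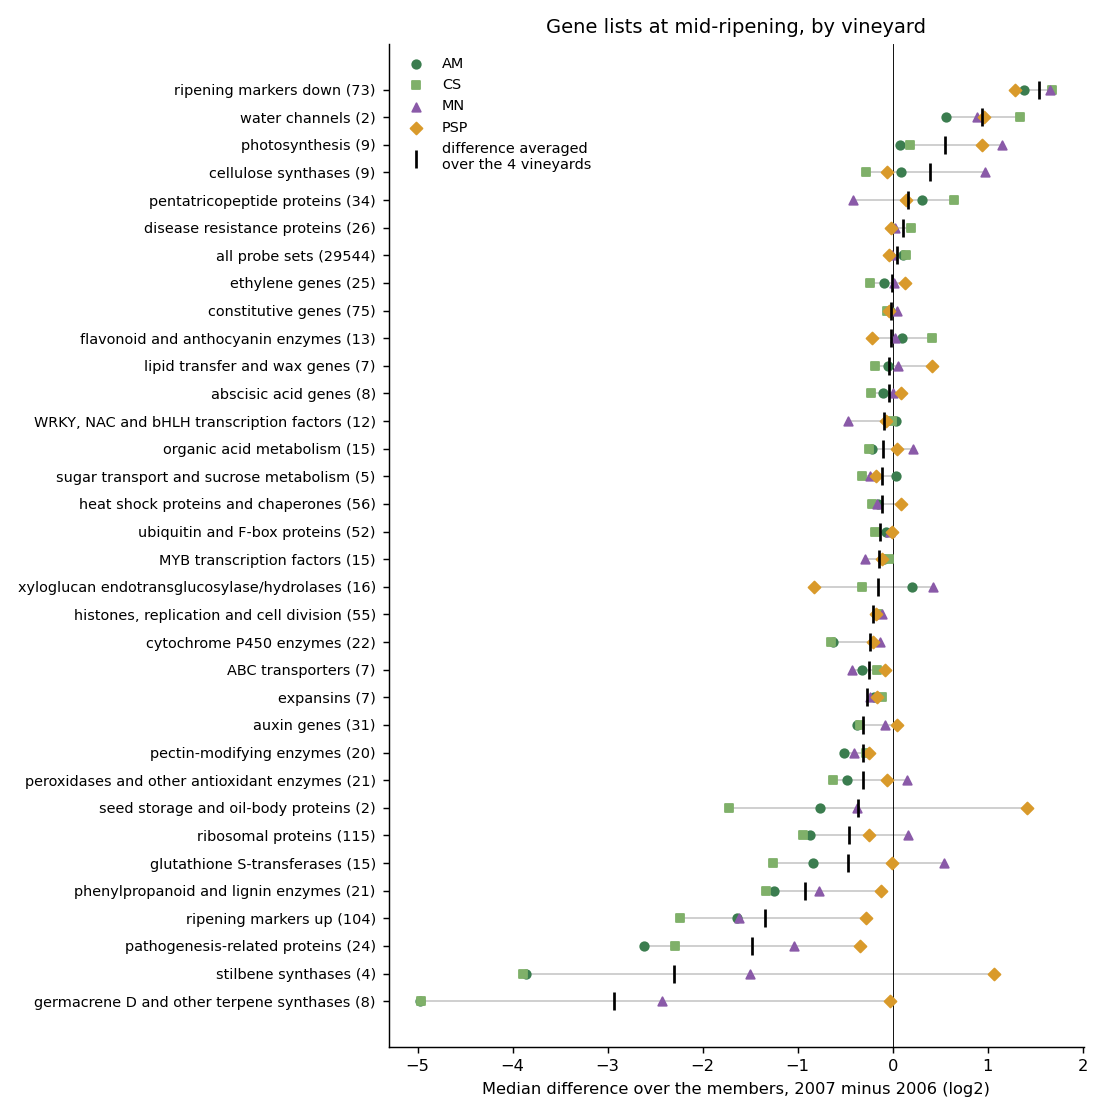
Median difference between 2007 and 2006 (log2, 2007 minus 2006) of each gene list. Coloured points are the medians of the single vineyards and the black tick is the median over members of the difference averaged over the 4 vineyards; declining markers sit at 1.54 and rising markers at -1.35, with PSP nearest to 0 among the rising markers.

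The genes with the smallest p in the paired fit are named next. None passed the threshold, since their adjusted p was 0.0981 in each case, but each of their differences passed limma's test within all 4 vineyards. All 5 named on the higher side declined through ripening in 2008. The polyphenol oxidase II gene VIT_00s0480g00070 encodes a plastid enzyme that oxidises phenolics and browns cut fruit. Its level ranged from 6.55 to 9.25 (median 7.77) on the 12 arrays of 2006 and from 9.77 to 11.17 (median 10.30) on the 12 arrays of 2007. The years did not overlap, and the difference was 2.64 ± 0.24 (SE, n = 4 vineyards). The ankyrin repeat gene VIT_12s0028g04000 ranged from 7.68 to 9.57 (median 8.44) on the 12 arrays of 2006 and from 9.99 to 11.17 (median 10.45) on the 12 arrays of 2007. It did not overlap either, with a difference of 1.94 ± 0.20.

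Cytokinin dehydrogenase 5, VIT_18s0001g13200, an enzyme that degrades the growth hormones called cytokinins, had the most positive difference of all probe sets. In 2006 its levels were 7.97, 7.77 and 7.66 in AM, 6.46, 6.81 and 7.10 in CS, 8.09, 10.61 and 9.19 in MN and 7.71, 8.40 and 8.30 in PSP. In 2007 they were 11.07, 10.92 and 11.84 in AM, 12.08, 12.58 and 13.06 in CS, 12.92, 11.95 and 12.46 in MN and 11.74, 11.86 and 11.90 in PSP. Every array of 2007 was above every array of 2006, the nearest being MN replicate B of 2006. The difference was 4.03 ± 0.45, ranging from 3.14 in MN to 5.78 in CS (interaction adjusted p = 0.00366, limma). A glyoxal oxidase, VIT_08s0007g01300, an enzyme that yields hydrogen peroxide at the cell wall, ranged 7.11 to 10.60 (median 9.20) in 2006 and 11.01 to 13.12 (median 12.37) in 2007 without overlap, with a difference of 3.15 ± 0.37. ACD1, VIT_06s0004g00640, is pheophorbide a oxygenase in Arabidopsis, a step of chlorophyll breakdown. It ranged 5.59 to 8.30 (median 7.27) in 2006 and 8.03 to 10.00 (median 9.58) in 2007, the years overlapped, and its difference was 2.07 ± 0.25, with 8 of the 12 arrays of 2006 above the random-probe level.

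On the lower side, all 5 genes climbed through ripening in 2008, and 3 of them (VIT_01s0146g00320, VIT_00s0194g00120 and VIT_01s0026g02590) had been listed by the study for differing between years, so their direction is no independent evidence. A UPF0497 family gene, VIT_14s0068g01400, ranged from 9.32 to 10.53 (median 10.04) on the 12 arrays of 2006 and from 6.89 to 8.46 (median 7.73) on the 12 arrays of 2007. The years did not overlap and the difference was -2.27 ± 0.23. The serine acetyltransferase gene VIT_00s0194g00120, whose enzyme starts cysteine synthesis, ranged 7.55 to 10.37 (median 8.61) in 2006 and 5.59 to 7.63 (median 6.22) in 2007, with a difference of -2.31 ± 0.22. Only 3 of its 12 arrays of 2007 were above the random-probe level, and against that level it fell at least 1.12-fold in CS and 4.92-fold in MN. The calcium-binding EF hand gene VIT_01s0026g02590 ranged 7.64 to 9.75 (median 8.48) in 2006 and 5.66 to 7.11 (median 6.21) in 2007 without overlap, and was above the random-probe level on 2 arrays of 2007. It fell at least 3.94-fold in AM and 1.70-fold in CS, where no array of 2007 was above that level. Of the 2 genes without an annotated function, VIT_01s0146g00320 ranged 7.57 to 9.22 (median 8.43) in 2006 and 4.72 to 7.18 (median 5.62) in 2007 with 1 array of 2007 above the random-probe level. The other, VIT_18s0001g09000, ranged 7.40 to 9.41 (median 7.83) in 2006 and 5.07 to 7.01 (median 5.76) in 2007 and was above it on no array of 2007, so that only a bound can be given: it was at least 2.30-fold lower.

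**Figure D4:**
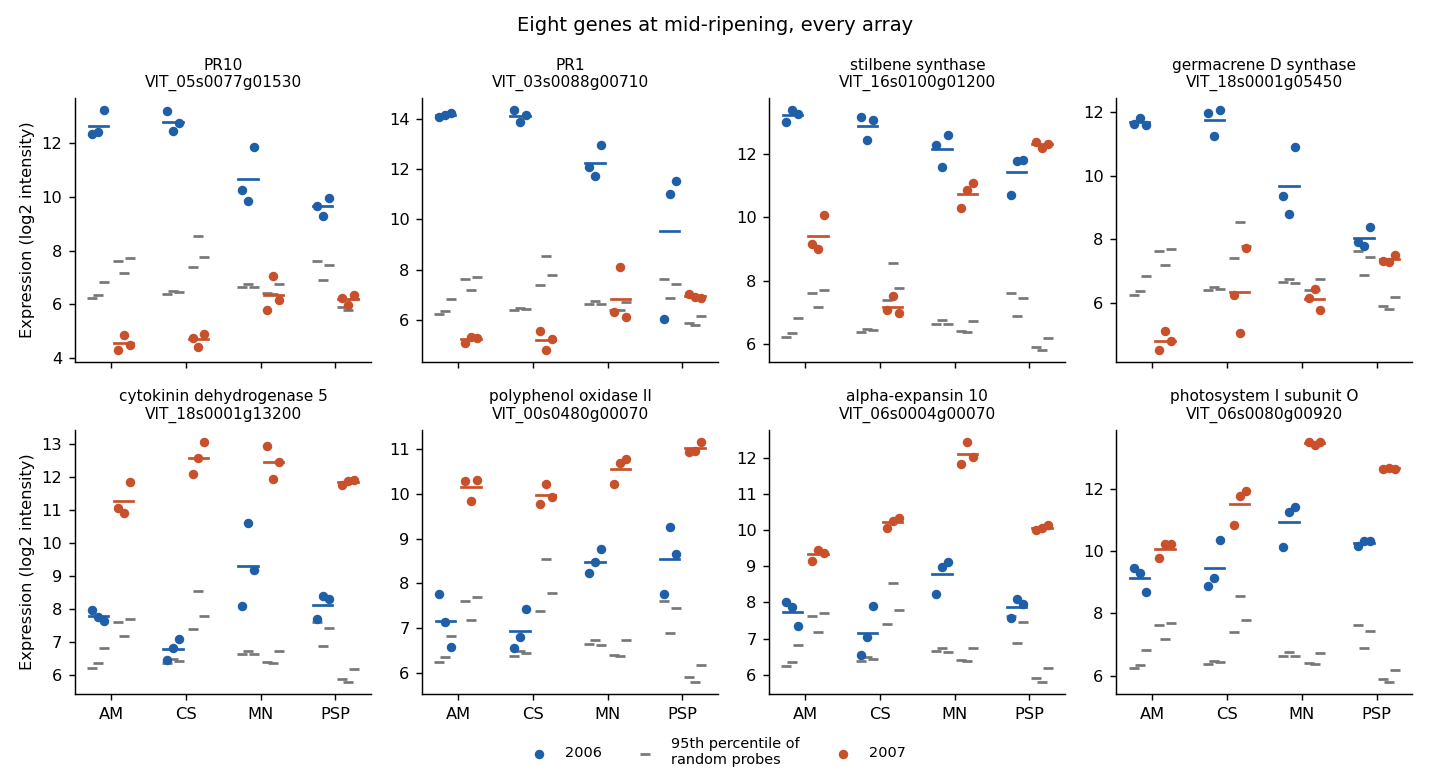
Levels (log2 intensity) of named genes on each of the 24 arrays, grouped by vineyard and coloured by year. Each point is 1 array; cytokinin dehydrogenase 5 lies above 10.9 on all arrays of 2007, and PR10 lies below 7.1 on all of them.

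Of the functional groups with over 10 members, the pathogenesis-related proteins lay furthest below 0. For the counts of each group, the shares over all probe sets are 22.7%, 27.0%, 21.8% and 23.1% that fell and 28.2%, 34.5%, 20.1% and 20.0% that rose in AM, CS, MN and PSP, and 13.6% higher and 10.8% lower in all 4 vineyards. Of the 24 genes annotated as such, 12 were lower in 2007 in all 4 vineyards and 1 was higher. The number that fell was 19 in AM, 18 in CS, 13 in MN and 9 in PSP, against 0, 2, 4 and 2 that rose, and 8 of the 24 fell in all 4 vineyards (2.13% of all probe sets). The median was -1.48, or -3.27 over the 12 members known from tables that the study made on 2008 arrays alone. With MN and PSP alone the median was -0.89, and -0.86 with all values raised to the highest random-probe level. PR10, VIT_05s0077g01530, is a small intracellular defence protein. Its levels in 2006 were 12.33, 12.41 and 13.24 in AM, 13.19, 12.45 and 12.77 in CS, 10.27, 9.85 and 11.84 in MN and 9.67, 9.29 and 9.96 in PSP. In 2007 they were 4.28, 4.85 and 4.48 in AM, 4.74, 4.41 and 4.90 in CS, 5.78, 7.07 and 6.17 in MN and 6.24, 5.96 and 6.36 in PSP. The years were apart on all arrays, and AM and CS were the highest in 2006. The paired difference of the values as measured was -6.0 ± 0.87 (limma, adjusted p = 0.107). In AM and CS no array of 2007 was above the random-probe level, so PR10 fell there at least 35.8-fold and 29.8-fold, while the measured differences in MN and PSP were -4.32 and -3.46 (limma within the vineyard, adjusted p = 2.65e-07 and 2.36e-06). In MN only replicate B of 2007 was above that level. Replicates A and C, at 5.78 and 6.17, lay below levels of 6.41 and 6.74, so the MN size is that of the values as measured.

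The PR1 genes encode secreted antifungal proteins. As members of a family they may share signal, though the study states that it assessed probe sets of gene families to exclude cross-hybridization. This was not checked here. The PR1 genes had the same pattern as PR10. VIT_03s0088g00710 ranged 6.06 to 14.34 (median 13.41) in 2006 and 4.80 to 8.10 (median 5.85) in 2007, with 4 of the 12 arrays of 2007 above the random-probe level and a paired difference of the values as measured of -6.45 ± 1.07 (limma, adjusted p = 0.120). VIT_03s0088g00690 ranged 5.57 to 12.54 (median 11.34) in 2006 and 4.96 to 7.36 (median 6.03) in 2007 with a difference of -4.69 ± 0.78, and VIT_03s0088g00750 ranged 6.67 to 13.33 (median 12.19) in 2006 and 6.45 to 8.66 (median 7.27) in 2007 with a difference of -4.31 ± 0.68. These genes overlapped between years only through 1 array, replicate A of PSP in 2006. It held VIT_03s0088g00710 at 6.06 where the other replicates of that group held it at 11.01 and 11.52. The PSP difference of VIT_03s0088g00710 was -2.59, and -4.32 without that array, and for VIT_03s0088g00690 it was -2.05 and -3.34, and for VIT_03s0088g00750 -2.24 and -3.56. Without replicate C of the same group these values were -1.59, -1.25 and -1.46. In AM and CS the PR1 genes were below the random-probe level in 2007, and VIT_03s0088g00710 fell at least 99.2-fold in AM and 73.9-fold in CS.

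Stilbene synthases make resveratrol, and those named here went opposite ways in PSP and the other vineyards. All 4 of them, part of a larger family, fell in AM and CS and 3 fell in MN, while in PSP 2 rose and 0 fell. The list's median was -2.30, with -3.86 in AM, -3.90 in CS, -1.50 in MN and 1.07 in PSP. The gene with the clearest signal, VIT_16s0100g01200, stood in 2006 at 13.02, 13.39 and 13.24 in AM, 13.16, 12.43 and 13.06 in CS, 12.27, 11.58 and 12.60 in MN and 10.70, 11.79 and 11.79 in PSP. In 2007 it stood at 9.17, 8.99 and 10.06 in AM, 7.07, 7.50 and 6.97 in CS, 10.29, 10.86 and 11.09 in MN and 12.39, 12.18 and 12.32 in PSP. PSP was thus the lowest vineyard in 2006 and the highest in 2007. Its differences were -3.81 in AM, -5.70 in CS, -1.41 in MN and 0.87 in PSP (interaction adjusted p = 1.07e-08, limma), and in CS it fell at least 31.5-fold, to below the random-probe level. The PSP difference was 0.51 without replicate A of 2006. With all values raised to the highest random-probe level the list's median was -0.41. The other members, VIT_16s0100g00770, VIT_16s0100g01140 and VIT_16s0100g01190, were at or below the random-probe level on most arrays of 2007, and their PSP differences were 0.50, 1.26 and 1.43, of which only the last passed, from a level below the random-probe level in 2006. Without replicate A of PSP in 2006 the first of these was -0.16 and the second 0.70. The family has many members, and whether they share signal on these probes was not checked here.

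Terpene synthases fell in 3 vineyards and were little apart in PSP. Of 8 members, 8 fell in AM, 8 in CS and 6 in MN, and in PSP 2 rose and 0 fell. The list's median was -2.93, with -4.97 in AM, -4.97 in CS, -2.43 in MN and -0.03 in PSP, and it was -1.23 with all values raised to the highest random-probe level. The germacrene D synthase VIT_18s0001g05450, which makes a sesquiterpene scent compound, stood at 11.63, 11.80 and 11.58 in AM and 11.97, 11.26 and 12.07 in CS in 2006, but at 7.91, 7.78 and 8.39 in PSP. In 2007 it stood at 4.50, 5.10 and 4.79 in AM, 6.25, 5.06 and 7.71 in CS and 7.32, 7.29 and 7.51 in PSP. It fell at least 18.0-fold in AM and 14.5-fold in CS, its difference in MN was -3.56, and its PSP difference of -0.65 did not pass (limma, adjusted p = 0.322). VIT_18s0001g04280 and VIT_18s0001g04490 fell in AM, CS and MN, with PSP differences of -0.24 and 0.19 that did not pass. Without replicate A of PSP in 2006, which held them at 5.79 and 4.61, these were -0.73 and -0.44. For these 3 genes the vineyards differed (interaction adjusted p from 3.12e-06 to 1.5e-05, limma). The sesquiterpene synthase VIT_18s0001g04080 was above the random-probe level on 7 arrays of 2006 and on 0 of 2007. It fell at least 1.60-fold in AM and 1.23-fold in CS, and it is known here only from tables that compared years. Shared signal among these genes was not checked either.

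Among the phenylpropanoid and lignin enzymes, which turn phenylalanine into phenolics and wall polymers, 9 of 21 were lower in all 4 vineyards and 0 higher. The number that fell was 16 in AM (background 22.7%), 16 in CS (27.0%), 13 in MN (21.8%) and 7 in PSP (23.1%), where 4 rose, and the median was -0.92, or -0.28 over MN and PSP alone. Of the 9 lower in all 4 vineyards, 5 were among 8 members known only from tables that compared years. The 13 members known from tables made on 2008 arrays alone had a median of -0.47, with 4 lower in all 4 vineyards. The leading members of the whole list were dirigent proteins, which guide the coupling of monolignols into lignans. VIT_06s0004g01020 ranged 6.49 to 13.02 (median 11.94) in 2006 and 4.73 to 7.66 (median 5.64) in 2007, with a difference of -5.45 ± 0.97 (limma, adjusted p = 0.129). VIT_06s0004g01010 and VIT_06s0004g01030 followed at -5.07 ± 0.99 and -5.01 ± 0.86, and these 3 neighbouring genes may share signal. Each fell in all 4 vineyards, VIT_06s0004g01020 by at least 38.9-fold in AM and 27.9-fold in CS. A dirigent gene elsewhere in the genome, VIT_17s0000g04880, ranged 7.50 to 9.93 (median 9.01) in 2006 and 6.77 to 8.80 (median 7.89) in 2007, and its differences of -1.28 in AM, -0.89 in CS, -1.32 in MN and -0.95 in PSP passed in each vineyard. It had been listed by the study for differing between years.

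The flavonoid and anthocyanin enzymes had no common direction, with a median of -0.02 over 13 genes, 2 higher and 1 lower in all 4 vineyards. VIT_18s0041g00910 is annotated as an anthocyanidin 5,3-O-glucosyltransferase, a type of enzyme that adds sugars to the red pigments. It ranged 7.67 to 9.06 (median 8.37) in 2006 and 8.95 to 10.76 (median 10.23) in 2007. Its difference was 1.70 ± 0.22 and it rose in all 4 vineyards (limma, adjusted p up to 4.32e-04). VIT_12s0134g00590 is annotated as an anthocyanidin glucoside malonyltransferase. It ranged 5.66 to 8.73 (median 7.30) in 2006 and 8.38 to 9.43 (median 8.76) in 2007. It rose in AM, CS and MN, but its PSP difference of 0.33 did not pass. The function of either gene in these berries was not tested. Both declined through ripening in 2008, with changes of -3.15 and -4.24 between veraison and harvest.

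Photosynthesis genes were higher in 2007 in MN and PSP and divided in AM and CS. Of 9 photosynthesis genes, 4 were higher in all 4 vineyards and 0 lower, and 6 rose in MN and 6 in PSP, but in AM 3 rose and 3 fell, and in CS 4 rose and 4 fell. PSBQ, VIT_00s0904g00010, a subunit of the oxygen-evolving complex of photosystem II, ranged 8.63 to 10.90 (median 9.91) in 2006 and 9.82 to 12.92 (median 11.51) in 2007, with differences of 1.19 in AM, 1.37 in CS, 2.25 in MN and 2.18 in PSP. The photosystem I subunit PSAO, VIT_06s0080g00920, ranged 8.69 to 11.41 (median 10.14) in 2006 and 9.78 to 13.51 (median 12.27) in 2007. Its differences were 0.94 in AM, 2.04 in CS, 2.54 in MN and 2.38 in PSP, and all passed limma's test within the vineyard (adjusted p up to 0.0336). The paired adjusted p were 0.107 and 0.113. Of the 2 aquaporins on the list, channels that pass water through membranes, TIP3;1 was above the random-probe level on 0 arrays of 2006 and 2 of 2007 and passed in no vineyard. The other, PIP2B, VIT_06s0004g02850, was higher in all 4 vineyards and ranged 11.46 to 12.74 (median 12.45) in 2006 and 12.77 to 14.14 (median 13.91) in 2007 without overlap, at a difference of 1.32 ± 0.28 (limma, adjusted p = 0.166).

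Cell wall genes split by family member. Alpha-expansin 10, VIT_06s0004g00070, from a family that loosens walls, ranged from 6.54 to 9.12 (median 7.92) on the 12 arrays of 2006 and from 9.15 to 12.45 (median 10.11) on the 12 arrays of 2007. The years did not overlap, its difference was 2.54 ± 0.33 (limma, adjusted p = 0.0981), and it rose in all 4 vineyards. The other 6 expansins were in neither direction in all 4, and the list's median was -0.26. Of 16 xyloglucan endotransglucosylase/hydrolases, enzymes that cut and rejoin wall hemicellulose, 8 rose and 0 fell in MN, whereas 1 rose and 11 fell in PSP. VIT_00s0386g00050 ranged 6.70 to 12.25 (median 10.16) in 2006 and 10.01 to 13.02 (median 11.15) in 2007 and rose in AM and CS, by 1.73 and 2.57. The 9 cellulose synthases had a median of 0.40, or -0.03 without MN, where 6 rose, and in this list 0 members were higher and 1 was lower in all 4 vineyards. All 9 were known only from tables that compared years. Between 3 and 7 of them were above the random-probe level on single arrays of 2006, and between 2 and 9 on those of 2007. Of 20 pectin-modifying enzymes 5 were lower in all 4 vineyards and 1 higher, at a median of -0.31. The pectin acetylesterase VIT_16s0050g00570 ranged 10.09 to 11.20 (median 10.66) in 2006 and 8.92 to 10.49 (median 9.90) in 2007 and fell in AM, CS and MN, but its PSP difference of -0.13 did not pass. This gene had been listed by the study for differing between years.

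Sugar, acid, abscisic acid and ethylene genes had medians near 0, and that of the auxin genes was lower. The cell wall invertase VIT_09s0002g02320, which splits sucrose outside the cell as sugar is unloaded, ranged 9.42 to 11.55 (median 10.59) in 2006 and 8.47 to 9.80 (median 8.96) in 2007. It fell by 2.47 in AM, by 1.59 in CS and by 2.13 in MN, and in PSP the difference of -0.17 did not pass (interaction adjusted p = 1.47e-05, limma). Sucrose synthase VIT_07s0005g00750 ranged 14.77 to 15.25 (median 14.99) in 2006 and 15.06 to 15.28 (median 15.16) in 2007 and rose in AM and MN, by 0.31 and 0.32. Over the 5 sugar genes the median was -0.11, and over the 15 genes of organic acid metabolism it was -0.10. The 9-cis-epoxycarotenoid dioxygenase VIT_02s0087g00930, which makes the precursor of abscisic acid, rose in PSP by 1.48 and in CS by 0.81 and in MN fell by 0.53. In AM it rose by 0.51, or 0.23 without replicate C of 2006. The 8 abscisic acid genes had a median of -0.04, the 25 ethylene genes -0.0021 and the 31 auxin genes -0.31, beside a lower quartile of -0.25 over all probe sets. Of the auxin genes 4 were lower and 3 higher in all 4 vineyards, and without AM and CS their median was 0.0395. Of the 4 lower ones 3 were known only from tables that compared years, and of the 3 higher ones 0 were. The 16 members known from tables made on 2008 arrays alone had a median of -0.16. SAUR11, VIT_15s0048g00530, an early auxin response gene, ranged 10.19 to 11.21 (median 10.73) in 2006 and 9.00 to 9.92 (median 9.54) in 2007 without overlap and fell in all 4 vineyards (limma, adjusted p up to 0.00126). SAUR11 and the cell wall invertase had been listed by the study for differing between years. The ethylene-responsive factor ERF109, VIT_03s0063g00460, ranged 9.31 to 10.78 (median 10.15) in 2006 and 7.77 to 9.70 (median 8.75) in 2007 and fell in AM, CS and PSP.

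Among the transcription factors, MYB genes with clear differences lay on both sides of 0. Myb domain protein 61, VIT_07s0005g02480, ranged from 6.52 to 9.28 (median 8.09) on the 12 arrays of 2006 and from 10.09 to 11.37 (median 10.59) on the 12 arrays of 2007. The years did not overlap, and it rose by 3.15 in AM, 3.54 in CS, 1.20 in MN and 2.45 in PSP, though its paired adjusted p was 0.111 (limma). Myb domain protein 102, VIT_00s0203g00070, ranged 5.98 to 8.22 (median 7.51) in 2006 and 7.38 to 9.38 (median 8.42) in 2007 and rose in AM, CS and PSP. Myb domain protein 24, VIT_14s0066g01090, ranged 9.11 to 11.66 (median 9.77) in 2006 and 5.96 to 10.20 (median 8.69) in 2007 and fell in AM and CS, with differences of -2.64 and -4.19, while those of MN and PSP were -0.03 and -0.15 (interaction adjusted p = 2.06e-05). The 15 MYB genes had a median of -0.15, with 2 higher (13.3%) and 6 lower (40.0%) in all 4 vineyards, against 13.6% and 10.8% of all probe sets. Of those 6, 4 were known only from tables that compared years. NAC domain-containing protein 25, VIT_00s0375g00040, one of 12 WRKY, NAC and bHLH genes (median -0.09), ranged 11.33 to 12.35 (median 12.00) in 2006 and 9.73 to 10.89 (median 10.50) in 2007 without overlap and fell in all 4 vineyards (limma, adjusted p up to 0.00781). The study had listed it for differing between years.

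Ribosomal proteins were mostly lower in AM, CS and PSP, and in MN more rose than fell. Of 115 named here, 97 fell in AM and 97 in CS (background 22.7% and 27.0%). In PSP 48 fell and 4 rose (background 23.1% and 20.0%), and in MN 34 rose and 6 fell (background 20.1% and 21.8%). Their medians were -0.87 in AM, -0.94 in CS, 0.16 in MN and -0.24 in PSP, and the median over MN and PSP alone was -0.06. RPS30C, VIT_11s0016g02690, a protein of the small ribosomal subunit, ranged 12.91 to 13.44 (median 13.31) in 2006 and 10.85 to 13.01 (median 12.11) in 2007 and fell in all 4 vineyards, with differences of -1.71 in AM, -1.98 in CS, -0.38 in MN and -0.59 in PSP (interaction adjusted p = 8.17e-07, limma). RPS17A, VIT_08s0007g02620, ranged 10.93 to 11.51 (median 11.40) in 2006 and 9.33 to 11.02 (median 10.15) in 2007, with differences of -1.42 in AM, -1.83 in CS, -0.89 in MN and -0.33 in PSP, of which that of PSP did not pass. Pentatricopeptide proteins, which process RNA in plastids and mitochondria, were higher in part. Of 34, 15 rose in AM (background 28.2%) and 26 in CS (34.5%), while in MN 18 fell (21.8%) and 2 rose (20.1%), and in PSP 9 rose and 5 fell. In this list VIT_00s1045g00010 ranged 7.80 to 8.95 (median 8.41) in 2006 and 8.11 to 9.75 (median 9.34) in 2007 and rose in AM, CS and MN, and VIT_14s0108g01050, at 6.85 to 7.82 (median 7.50) in 2006 and 5.13 to 7.07 (median 6.76) in 2007, was near the random-probe level. Histones and replication genes (55, median -0.21) held histone H4, VIT_06s0004g03890, which packs DNA into chromatin. It ranged 10.79 to 11.25 (median 11.05) in 2006 and 8.72 to 10.79 (median 9.32) in 2007 without overlap, with differences of -2.20 in AM, -2.08 in CS, -1.12 in MN and -0.44 in PSP. The tubulin beta-6 chain VIT_09s0002g09010, a microtubule subunit, rose in all 4 vineyards and was below the random-probe level in PSP in 2006. Its differences were 0.69 in AM, 1.37 in CS and 1.54 in MN, and in PSP it rose at least 1.29-fold. This tubulin, histone H4 and VIT_00s1045g00010 had been listed by the study for differing between years.

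Stress and detoxification genes divided by vineyard. Of 15 glutathione S-transferases, which conjugate glutathione to reactive compounds, 13 fell in AM and 13 in CS, whereas 10 rose and 0 fell in MN. The list's medians were -0.84, -1.26, 0.54 and -0.01 in AM, CS, MN and PSP, and over MN and PSP alone the median was 0.20. A pair of genes annotated as GSTF13, VIT_07s0104g01800 and VIT_07s0104g01810, which may share signal, rose in all 4 vineyards. VIT_07s0104g01800 ranged 8.97 to 10.51 (median 9.87) in 2006 and 10.19 to 12.53 (median 11.48) in 2007, with differences of 1.16 in AM, 0.90 in CS, 2.11 in MN and 2.17 in PSP. GSTU8, VIT_15s0024g01540, ranged 12.21 to 12.75 (median 12.37) in 2006 and 11.07 to 12.32 (median 11.71) in 2007 and fell in AM, CS and PSP. Of 21 peroxidases and other antioxidant enzymes, 15 fell in AM (background 22.7%), 14 in CS (27.0%), 3 in MN (21.8%) and 5 in PSP (23.1%), so that MN was below its background and PSP near it. A glutaredoxin-type arsenate reductase, VIT_07s0104g01390, rose in all 4 by 0.81 to 1.78. The 56 heat shock proteins and chaperones had a median of -0.11, with 4 higher (7.14%) and 8 lower (14.3%) in all 4 vineyards, against 13.6% and 10.8% of all probe sets. Of those 8, 7 were known only from tables that compared years. The 27 members known from tables made on 2008 arrays alone had a median of 0.02, with 3 higher (11.1%) and 1 lower (3.70%). The mitochondrial chaperone BCS1 gene VIT_09s0054g00910 ranged 8.48 to 10.05 (median 9.13) in 2006 and 6.67 to 9.18 (median 7.18) in 2007 and fell in each vineyard. The DnaJ homolog VIT_18s0001g15020 fell in AM, MN and PSP, with differences of -0.61, -1.24 and -1.62, while in CS it was below the random-probe level in 2007 and no bound can be given. Both had been listed by the study for differing between years. The 26 disease resistance proteins had a median of 0.11. Their CC-NBS-LRR member VIT_14s0030g00150 ranged 5.76 to 6.75 (median 6.16) in 2006 and 6.80 to 8.23 (median 7.34) in 2007 without overlap, but was above the random-probe level on 2 arrays of 2006 and 8 of 2007. This member too had been listed by the study for differing between years.

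Of 22 cytochrome P450 genes, 7 were lower in all 4 vineyards and 1 higher, at a median of -0.24. Of those 7, 5 were known only from tables that compared years. The 8 members known from tables made on 2008 arrays alone had a median of -0.07, with 2 lower and 1 higher. DWF4, VIT_04s0023g01640, which in Arabidopsis catalyses a limiting step of brassinosteroid synthesis, ranged 7.77 to 10.56 (median 9.19) in 2006 and 9.51 to 12.06 (median 11.44) in 2007. It rose in all 4 vineyards, most in CS (3.42). CYP86A2, VIT_02s0025g03320, a fatty acid hydroxylase that in Arabidopsis supplies cutin, ranged from 11.05 to 12.20 (median 11.52) on the 12 arrays of 2006 and from 7.18 to 10.73 (median 10.24) on the 12 arrays of 2007. The years did not overlap, and the MN arrays of 2007, at 7.78, 8.62 and 7.18, lay below all the rest. Its differences were -1.83 in AM, -0.60 in CS, -3.88 in MN and -1.09 in PSP (interaction adjusted p = 2.65e-07, limma). CYP94A1, VIT_07s0141g00890, ranged 9.90 to 12.46 (median 11.44) in 2006 and 8.74 to 9.99 (median 9.51) in 2007 and fell in AM, CS and MN. CYP94A1 had been listed by the study for differing between years. Of 7 ABC transporters, the PDR12 gene VIT_09s0002g05490 ranged 9.31 to 11.47 (median 10.40) in 2006 and 7.08 to 8.76 (median 8.14) in 2007 without overlap, with a difference of -2.18 ± 0.26, and fell in all 4 vineyards. The transporter VIT_13s0019g04600 ranged 9.11 to 10.13 (median 9.73) in 2006 and 10.25 to 11.57 (median 10.66) in 2007, also without overlap, and rose in all 4 vineyards at a difference of 1.08 ± 0.20. Lipid transfer protein 2, VIT_14s0006g02530, of a family that carries lipids to the cuticle, ranged 6.64 to 8.51 (median 7.64) in 2006 and 8.66 to 9.73 (median 9.06) in 2007 without overlap and rose in all 4 vineyards. The 7 lipid transfer and wax genes had a median of -0.04, and the 52 ubiquitin and F-box proteins -0.14.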

How the data were processed

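Single-colour (Cy3) NimbleGen arrays were hybridised with berry RNA. The authors normalized them with RMA, per the labels, and deposited 1 intensity per probe on a linear scale. Probes were grouped into 29544 probe sets of consecutively numbered probes, and a level was the log2 of the mean intensity over the probes of a set. The deposited files as used here name no genes: 5297 probe sets were named because their profile over samples matched that of 1 gene in the study's supplementary tables (r of at least 0.95, or 0.99 over 12 values), and those tables, including tables of comparisons between years, served for names and for which genes are markers, constant or listed for years. The members and gene lists were chosen with earlier results of these data known.

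limma 3.58.1 in R 4.3.3 (lmFit, eBayes, Benjamini-Hochberg over all probe sets, adjusted p below 0.05) was fitted to the 8 means of triplicates with year and vineyard as terms. A second fit on 24 arrays, with a mean per vineyard and year, gave the year difference in each vineyard and its interaction. Both were tested on simulated data. Fixed rules set the named genes: as fewer than 5 passed in each direction, the 5 with a gene identifier and the smallest p in each, genes the study names, and up to 4 members with the smallest p of each list. Bounds ("at least") set the brighter year's mean against the random-probe level. For 1 PSP array of 2007 the title lacks the stage digit, which another label gives. Alternatives covered probe summary, scaling, background, filters, models, slide, replicate letter and left-out samples. No sequences were used here.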

Additional observations from a re-analysis of the deposited data

Results flagged for a closer look

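In 4 of 136 groups of 4 vineyard means, 1 vineyard lay far from the others by Dixon's ratio of gap to range, beyond its 95% critical value, and chance alone gives about 1 such group in 20. The cell wall invertase VIT_09s0002g02320 in 2007 had a ratio of 0.87, with PSP apart. Myb domain protein 24, VIT_14s0066g01090, in 2006 had 0.856, with CS apart. The ribosomal protein gene VIT_11s0016g02690 in 2006 had 0.874, with AM apart, and CYP86A2, VIT_02s0025g03320, in 2007 had 0.881, with MN apart.

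The year difference depended on the vineyard for 21319 of all probe sets and for 51 of the 64 genes named in the text (interaction F test, limma, 24 arrays). Among the genes with the smallest paired p, the adjusted p of that test was 0.00366 for VIT_18s0001g13200, 0.00291 for VIT_08s0007g01300, 0.0296 for VIT_18s0001g09000 and 0.0183 for VIT_01s0026g02590. Among defence genes it was 6.45e-07 for VIT_05s0077g01530, 0.000443 for VIT_03s0088g00710, 0.000723 for VIT_03s0088g00690, 0.00248 for VIT_03s0088g00750 and 0.0234 for VIT_14s0030g00150. Among genes of secondary metabolism it was 1.71e-05 for VIT_16s0100g00770, 7.52e-06 for VIT_16s0100g01140, 1.07e-08 for VIT_16s0100g01200 and 6.54e-05 for VIT_16s0100g01190 (stilbene synthases), 3.12e-06 for VIT_18s0001g05450, 3.8e-06 for VIT_18s0001g04280 and 1.5e-05 for VIT_18s0001g04490 (germacrene D synthases), 5.38e-06 for VIT_06s0004g01030, 4.52e-06 for VIT_06s0004g01020 and 1.82e-07 for VIT_06s0004g01010 (dirigent proteins) and 3.93e-05 for VIT_12s0134g00590 (malonyltransferase). Among genes of photosynthesis, water and sugar transport and the cell wall it was 0.015 for VIT_00s0904g00010, 0.0305 for VIT_06s0080g00920, 8.5e-05 for VIT_06s0004g02850, 0.00248 for VIT_06s0004g00070, 0.000779 for VIT_16s0050g00570, 1.47e-05 for VIT_09s0002g02320 and 0.0355 for VIT_07s0005g00750. Among hormone genes and transcription factors it was 3.95e-05 for VIT_02s0087g00930, 0.0132 for VIT_03s0063g00460, 2.76e-06 for VIT_07s0005g02480, 0.0066 for VIT_00s0203g00070, 2.06e-05 for VIT_14s0066g01090 and 0.000129 for VIT_00s0375g00040. Among ribosomal, chromatin and RNA-processing genes it was 1.18e-05 for VIT_08s0007g02620, 8.17e-07 for VIT_11s0016g02690, 1.14e-05 for VIT_06s0004g03890, 0.0378 for VIT_14s0108g01050 and 0.00359 for VIT_00s1045g00010. Among chaperones and detoxifying enzymes it was 0.00279 for VIT_09s0054g00910, 0.015 for VIT_18s0001g15020, 5.88e-06 for VIT_07s0104g01800, 5.96e-08 for VIT_07s0104g01810, 0.0284 for VIT_15s0024g01540 and 0.0303 for VIT_07s0104g01390. Among cytochrome P450, transport and lipid genes it was 0.00395 for VIT_07s0141g00890, 1.53e-05 for VIT_04s0023g01640, 2.65e-07 for VIT_02s0025g03320, 0.0267 for VIT_13s0019g04600 and 0.000289 for VIT_14s0006g02530, and for the seed genes it was 1.26e-05 for VIT_12s0034g01950 and 0.00192 for VIT_18s0157g00200. Of the stilbene synthases named here, only 1 difference in PSP, that of VIT_16s0100g01200, was both significant and measured above the random-probe level in both years.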

How the results depend on the processing

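The count of 0 genes in the paired fit was also found under every other probe summary, scaling, background and filter tried on the 8 means and with any replicate letter or vineyard left out. It was not found under other models of the same arrays, for which the cause was not tested: 664 probe sets (405 higher, 259 lower) with the 2008 means in the fit, 138 without the vineyard term, 2915 with vineyard and year as a random block over single arrays, 5774 with the slide as a random block and 12762 with 24 arrays as independent samples. By a paired t-test on the 8 means 853 had a P below 0.01, an adjusted p below 0.10 gave 83, and values normalized to veraison gave 414. With 2008 in the fit, 30 of the 64 named genes passed. The replicate letter did not pair the years: over 12 pairs of same-lettered arrays the deviations correlated at -0.073 to 0.136, with 1 above 0.1 and 8 highest with their own letter, and the replicate block with vineyard gave 12179 calls. It kept the counts within vineyards within 1.5 times.

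The excess of the distance between years, 0.0121, had p = 0.125 in an exact permutation test that swapped the years only within vineyards, chosen after seeing the data, since that design has 8 assignments. Without single replicates MN had 8178 to 9528 calls (lowest without replicate B). Raising all values to the highest random-probe level, chosen after seeing the data, moved the rising markers to -0.34, the declining ones to 1.06, pectin-modifying enzymes to -0.0177, auxin genes to -0.0282 and histones to -0.0484, and left 4 of the named genes without a value. Without AM and CS, chosen likewise, the median was -0.28 for phenylpropanoid enzymes, -0.0442 for expansins, -0.15 for pectin-modifying enzymes, 0.13 for organic acid genes, 0.0395 for auxin genes, -0.17 for histones, 0.0723 for peroxidases, 0.26 for lipid transfer genes and -0.0256 for ubiquitin and F-box proteins. Leaving out 1 vineyard gave -0.15 for expansins, -0.0521 for ubiquitin proteins and -0.16 for histones (CS), 0.25 for lipid transfer genes and -0.15 for histones (AM), -0.23 for ubiquitin proteins and -0.25 for histones (MN), and -0.21 for abscisic acid genes, -0.26 for MYB genes and -0.15 for histones (PSP). The probe median gave -0.35 for expansins and -0.29 for MYB genes. Legumin was at 0.20 without CS. Steroleosin-B had a sign that was not stable: -0.20 with the probe median, -0.007 to 0.057 without 1 replicate letter, and -0.049, -0.009 and -0.034 without AM, CS and MN. The difference averaged over vineyards changed sign for no other named gene in any setting run, but the median of 13 of the 30 gene lists did in at least 1 setting, among them cellulose synthases (-0.03 without MN) and glutathione S-transferases (0.20 without AM and CS).

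Random-probe levels limit what the arrays show: in AM and CS in 2007 the named PR10, PR1 and terpene synthase genes, the 3 neighbouring dirigent genes and the stilbene synthases other than VIT_16s0100g01200 in AM, ended below them, so the full size of those falls was not measured. The same held in MN for VIT_18s0001g04280, VIT_18s0001g04490 and VIT_16s0100g01140, which fell at least 7.78-fold, 3.27-fold and 3.66-fold. In PSP it held for VIT_06s0004g01030, which fell at least 3.61-fold. PR10 and VIT_18s0001g05450 were above the level in MN of 2007 on replicate B only. Simulated data with 200 changed genes gave 73.5% recovered within 1 vineyard at 1 log2 unit and 15.5% at 0.5, and 52.5% and 0.0% for the interaction.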
